A study of Rattus norvegicus with 18 samples.

Results

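rno-miR-143-3p, rno-miR-145-5p and rno-miR-199a-3p (rno for rat, left out from here on where short names serve) are 3 of the 401 mature microRNAs (miRNAs) counted in rat liver by small RNA sequencing, and were picked by name. All 3 had enough counts to be tested, as had 112 of the 401. The libraries fell into 3 groups of 6, all from livers taken at 8 weeks of age. The first group was lean rats with no agent named, the second obese rats given vehicle and the third obese rats given colesevelam, a gut-restricted polymer that captures bile acids. The labels give the strain of all 3 groups as ZDF-Leprfa/Crl, so the lean rats are told apart by their name and phenotype alone. Obese Zucker diabetic fatty (ZDF) rats lack a working leptin receptor, so each treated and vehicle rat also carries that defect. The labels state no dose, route or duration of treatment. No label ties each library to an animal of its own. The p-values here therefore reflect how libraries vary, which may be technical in part.

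A miRNA guides Argonaute proteins to messenger RNAs that pair with its seed, bases 2 to 8. miR-143 and miR-145 are cut from one primary transcript and are best known from smooth muscle and other contractile cells of vessel walls, where miR-145 supports the contractile state. miR-143 has also been linked to impaired insulin signalling in the obese liver. miR-199a and miR-214 share a transcript that runs antisense to a dynamin gene and is active in mesenchymal cells, among them the stellate cells that make scar tissue in liver. In whole liver these cells are a minority beside hepatocytes, and in such bulk samples fewer cells of a type and less RNA per cell cannot be told apart.

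The mature sequences are shown because they define what was counted, with the seed in capitals. They come from RefSeq (build GRCr8), in which all 3 names matched, and each is identical to the deposited sequence once U is read as T.
miR-143-3p: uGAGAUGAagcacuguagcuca
miR-145-5p: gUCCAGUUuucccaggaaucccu
miR-199a-3p: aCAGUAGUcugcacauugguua
The 3 seeds differ, and no other row of the deposited table and no other mature rat miRNA of the RefSeq table carried any of them. The lengths are 22, 23 and 22 bases, and the GC contents 45.5%, 52.2% and 40.9%, against a median of 45.5% over the tested miRNAs.

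Both precursors of the pair on chromosome 18 are shown next, with the 2 counted arms in capitals, since the arms were counted very unequally.
Mir143: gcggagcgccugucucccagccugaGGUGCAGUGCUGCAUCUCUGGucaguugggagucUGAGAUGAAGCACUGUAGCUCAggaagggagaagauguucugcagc
Mir145: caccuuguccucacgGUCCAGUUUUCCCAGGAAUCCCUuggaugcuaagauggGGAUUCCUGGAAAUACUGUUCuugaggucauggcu
In GRCr8 miR-143-3p lies at chr18:57371373-57371394 and miR-145-5p at chr18:57370033-57370055, both on the minus strand and within Carmn, a long noncoding RNA gene of the same strand that hosts the pair. Between these mature sequences lie 1317 bases, both in GRCr8 and by the positions in the deposited table. miR-199a-3p lies at chr13:77116294-77116315 on the plus strand, within Dnm3, which runs on the minus strand, and 5397 bases before miR-214-3p. Each of the 3 rows lists a single location in the deposited table.

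Libraries held 32936 to 881450 counts, and lean libraries were the deepest (110353 to 881450 counts, against 37909 to 147314 for vehicle and 32936 to 122880 for colesevelam). The liver label was borne out by the 6 hepatocyte miRNAs, which summed to 215427 to 497112 CPM (counts per 1000000, on library totals scaled by TMM) over all libraries. Most of that sum was miR-192-5p, with means of 267210 (lean), 194898 (vehicle) and 249660 CPM (colesevelam). miR-122-5p had means of 45208, 38368 and 49019 CPM in the same order. Of 5 muscle miRNAs, miR-133a-3p and miR-499-5p had 26 and 34 counts over all libraries, and the other 3 were not analysed here.

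The 3 miRNAs were present at very different levels. miR-143-3p ranked 9 of the 401 by mean level and took 4.09% of all counts, while miR-199a-3p ranked 67 with 0.0547% and miR-145-5p ranked 75 with 0.0366%. Over the lean libraries 78693 counts of miR-143-3p stood beside 748 of miR-145-5p. The precision differs accordingly. In the median colesevelam library counting error alone gave a coefficient of variation of 2.08% for miR-143-3p, but 26.3% for miR-145-5p and 26.7% for miR-199a-3p.

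rno-miR-143-3p, the abundant arm of its precursor, ranged from 32465 to 47746 CPM in lean libraries, with a median of 35314. In vehicle libraries it ranged from 33590 to 49357 CPM (median 39637), and in colesevelam libraries from 32166 to 61420 (median 37897). The groups overlapped almost wholly, and the single library that stood highest was colesevelam 5, which had the lowest TMM factor (0.814). By unscaled share of library counts vehicle 5 stood highest, at 5.13%, with colesevelam 5 at 4.99%. The coefficient of variation of the colesevelam group was 25.2% in CPM and 14.9% by that share. The means, in ascending order, were 38702 ± 6838 CPM for lean, 41080 ± 6589 for vehicle and 42512 ± 10721 for colesevelam (SD, n = 6), and neighbours in that order differed by less than their spread. Its spread within groups, an SD of 0.27 on the log2 scale, was the seventh smallest of the 112, against a median of 0.50.

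rno-miR-145-5p, its cluster mate, ranged from 234 to 932 CPM in lean libraries, with a median of 353. It ranged from 319 to 648 CPM in vehicle libraries (median 419) and from 167 to 375 in colesevelam libraries (median 287). Every colesevelam library lay below the vehicle median, and 4 of the 6 lay below every vehicle library, but the groups overlapped. The lean mean of 441 ± 260 CPM (SD, n = 6) leans on lean 6, at 932 CPM, where the next lean library held 515. The vehicle mean was 431 ± 122 and the colesevelam mean 287 ± 71.9 CPM. The lowest count in a library was 12, for which the exact 95% Poisson interval, covering counting error only, runs from 6.20 to 21.0 counts. Depth thus limits what a single library can show for this miRNA.

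rno-miR-199a-3p, the more abundant arm of the mesenchymal miR-199a precursor, ranged from 489 to 697 CPM in lean libraries, with a median of 544. It ranged from 395 to 648 CPM in vehicle libraries (median 571) and from 161 to 622 in colesevelam libraries (median 297). Of the 6 colesevelam libraries, 5 lay below every lean library on this scale, and colesevelam 5 lay among the lean ones. By unscaled share of library counts, colesevelam 1 (0.0486%) lay just above lean 6 (0.0484%). The means were 570 ± 85.6 CPM for lean, 545 ± 108 for vehicle and 340 ± 175 for colesevelam (SD, n = 6). The relative spread of the colesevelam group, 51.4%, was above that of vehicle (19.8%) and that of lean. The lowest value, in colesevelam 4, rests on 6 counts (exact 95% Poisson interval 2.20 to 13.1).

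The descriptions give 5 pairs of libraries within a group the same number, without saying what it stands for. Within these pairs the higher library exceeded the lower by 1.02 to 1.91 times for miR-143-3p, by 1.28 to 1.82 times for miR-145-5p and by 1.13 to 3.87 times for miR-199a-3p. The widest pair was colesevelam 4 and 5, which held 161 and 622 CPM of miR-199a-3p, the lowest and the highest of their group. No pair of libraries in a group, of 45 compared, agreed within sampling noise over all rows. Separate preparations from the same animal could fail this check as well, so it cannot tell whether a pair shares an animal.

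**Figure D1:**
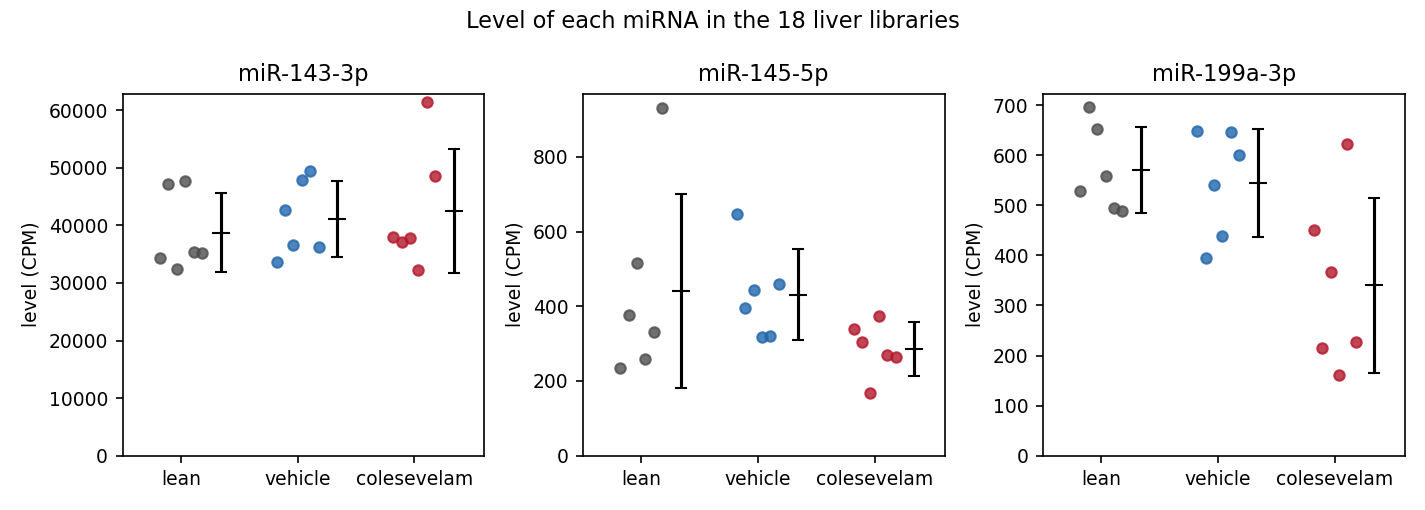
Level in CPM (y axis, from 0) of miR-143-3p, miR-145-5p and miR-199a-3p in each of the 6 libraries of the lean, vehicle and colesevelam groups (points), with mean and SD (bars). miR-143-3p overlaps across groups, while 5 of the 6 colesevelam libraries lie below all lean ones for miR-199a-3p on this TMM scale.

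Between obese rats on vehicle and lean rats none of the 3 miRNAs was called, that is, passed at an adjusted p under 0.05 in edgeR, where 6.25% of the 112 tested miRNAs were (2.68% as lower in vehicle). None of the 3 separated the groups without overlap either, as 2.68% of the tested miRNAs did, and none had an unadjusted p under 0.05 in edgeR, as 18.8% had. miR-143-3p had a log2 fold change of 0.09 ± 0.18 (SE; edgeR adjusted p = 0.892), with a 95% interval from −0.30 to 0.47. The interval for miR-145-5p was wider, −0.70 to 0.61 around −0.05 (edgeR adjusted p = 0.989). For miR-199a-3p it ran from −0.62 to 0.50 around −0.06 (edgeR adjusted p = 0.976). The sign of miR-145-5p rests on lean 6: without it the log2 fold change was 0.30. It also turned positive, to at most 0.04, without lean 3, vehicle 4 or vehicle 5, and that of miR-199a-3p turned to at most 0.07 without lean 2, vehicle 2 or vehicle 4.

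In the comparison of obese rats with and without the drug, again none of the 3 was called, against 10.7% of all tested miRNAs (3.57% as lower with colesevelam). The groups overlapped for all 3, while 5.36% of the tested miRNAs showed no overlap. miR-199a-3p was 1.57-fold lower in colesevelam libraries, at a log2 fold change of −0.65 ± 0.29 with a 95% interval from −1.25 to −0.06 (edgeR adjusted p = 0.173). miR-145-5p was 1.52-fold lower, at −0.60 ± 0.34 with an interval from −1.30 to 0.10 (edgeR adjusted p = 0.359). miR-143-3p was at 0.05 ± 0.18, with an interval from −0.33 to 0.43 (edgeR adjusted p = 0.936). Before adjustment only miR-199a-3p had a p under 0.05, at 0.0324 in edgeR, as had 21.4% of all tested miRNAs. By fold change it ranked 16 from the lowest among the 112 and miR-145-5p ranked 18, while miR-143-3p ranked 63, near the middle.

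Colesevelam against lean gave the values closest to a call. miR-199a-3p was 1.64-fold lower in colesevelam libraries, at −0.72 ± 0.28 with a 95% interval from −1.29 to −0.14, and missed the threshold (edgeR adjusted p = 0.0668). miR-145-5p was 1.57-fold lower, at −0.65 ± 0.33 with an interval from −1.32 to 0.03 (edgeR adjusted p = 0.144), and miR-143-3p was at 0.14 ± 0.18 (edgeR adjusted p = 0.657). None of the 3 was called, against 21.4% of the tested miRNAs (9.82% as lower with colesevelam), and the groups overlapped for all 3, unlike for 8.04% of the tested miRNAs. Before adjustment 39.3% of the tested miRNAs had a p under 0.05, and miR-199a-3p had 0.0173 in edgeR. Both colesevelam comparisons share the colesevelam libraries, so their like values for miR-199a-3p and miR-145-5p are not independent of each other.

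Single libraries moved these values. Without colesevelam 5, the deepest library of its group, miR-199a-3p was at −0.996 against lean and passed (edgeR adjusted p = 0.0120), and at −0.90 against vehicle (edgeR adjusted p = 0.0513). It also passed against lean without lean 6 (edgeR adjusted p = 0.0497). The other 10 fits that left out a library gave adjusted p-values in edgeR up to 0.175. It passed against lean in DESeq2 (adjusted p = 0.0455) and limma-voom (adjusted p = 0.0249) as well, and with miR-192-5p left out or scaling by library totals (edgeR adjusted p = 0.0377 and 0.0430). It did not pass with same-numbered libraries of a group summed, upper-quartile factors or no filter (edgeR adjusted p = 0.171, 0.118 and 0.0997). For miR-145-5p the difference of colesevelam from lean shrank to −0.30 without lean 6.

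**Figure D2:**
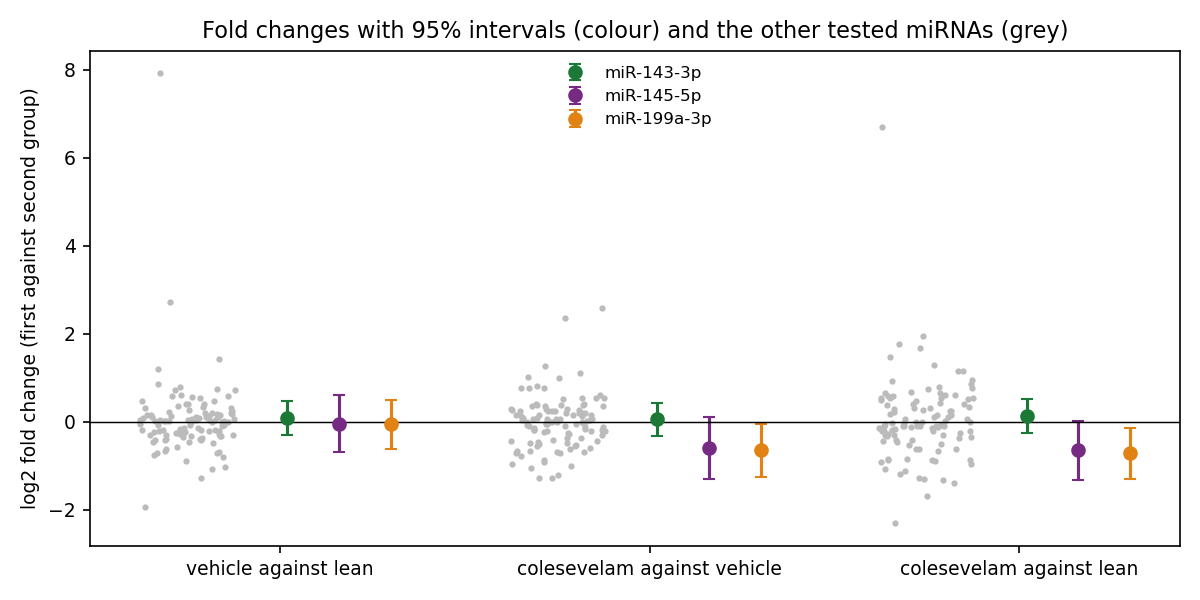
Log2 fold change (y axis) in the 3 comparisons for miR-143-3p, miR-145-5p and miR-199a-3p, with 95% intervals from edgeR, beside the other tested miRNAs (grey points, spread sideways for visibility). In both colesevelam comparisons miR-145-5p and miR-199a-3p lie between −0.60 and −0.72, while miR-143-3p stays near 0.

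The ratio of 2 miRNAs within a library does not depend on how libraries are scaled, and these ratios are described without a test. Per 1000 counts of miR-143-3p, lean libraries held 11.7 to 20.1 counts of miR-199a-3p (median 14.4). Vehicle libraries held 9.14 to 19.3 (median 13.9) and colesevelam libraries 4.67 to 11.9 (median 7.73). Of the 6 lean libraries, 5 lay above every colesevelam library, and so did 4 of the 6 vehicle libraries. The highest colesevelam library and the lowest lean one overlapped narrowly.

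Per 1000 counts of miR-143-3p there were 5.41 to 26.4 counts of miR-145-5p in lean libraries (median 8.66), 6.48 to 19.3 in vehicle (median 10.7) and 4.40 to 11.6 in colesevelam libraries (median 6.82). Here the overlap was broad, with 2 lean and 3 vehicle libraries above all colesevelam ones. The counts of the cluster mates, though carried by the same transcript, therefore kept no fixed proportion. Their ratio ran from 5.41 to 26.4 among the lean libraries alone. The upper end was lean 6 only, and the next lean library, lean 3, was at 15.9. Between miR-199a-3p and miR-145-5p the medians were 1677, 1265 and 1095 counts per 1000 in lean, vehicle and colesevelam libraries, with wide overlap.

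**Figure D3:**
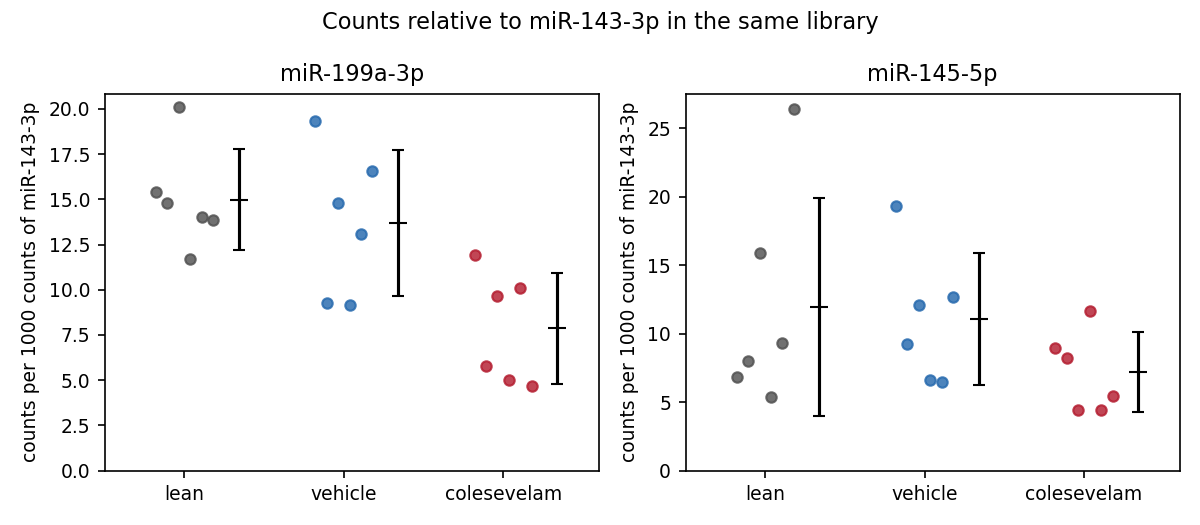
Counts of miR-199a-3p (left) and miR-145-5p (right) per 1000 counts of miR-143-3p in the same library (y axes, from 0), for 6 libraries a group (points) with mean and SD (bars). The colesevelam libraries span 4.67 to 11.9 on the left, below 5 of the 6 lean libraries.

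The other arm of each precursor was rare. miR-143-5p had 39 counts over all 18 libraries beside 113356 of miR-143-3p, so that the 3p arm made up 99.97% of the pair (exact 95% binomial interval 99.95 to 99.98%, for counting error only). miR-145-3p had 154 counts beside 1014 of miR-145-5p, which made up 86.8% (84.7 to 88.7%). miR-199a-5p had 156 beside 1514 of miR-199a-3p, which made up 90.7% (89.2 to 92.0%).

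By group the share of the 5p arm of miR-145 was 86.5% for lean, 91.3% for vehicle and 82.5% for colesevelam (exact 95% intervals 84.0 to 88.7%, 86.2 to 94.9% and 74.5 to 88.8%). That of miR-199a-3p was 91.7%, 88.5% and 86.5% in the same order. These shares pool the counts of 6 libraries, and their difference between groups was not tested. miR-214-3p, which follows miR-199a on chromosome 13 and is likewise linked to stellate cells, had 34 counts over the lean libraries, 22 over the vehicle ones and 11 over the colesevelam ones, too few to test. These sums follow the depth of the libraries: scaled for it, the means were 19.8 ± 19.3 CPM for lean, 59.8 ± 28.9 for vehicle and 34.3 ± 21.2 for colesevelam (SD, n = 6), with overlapping groups. None of these 4 rows passed the filter on low counts.

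Over libraries the 3 miRNAs did not move as one. With group means subtracted, Pearson's r of log2 CPM between the cluster mates miR-143-3p and miR-145-5p was −0.40 over 18 libraries (Spearman's rho −0.52). It was −0.39 without the 2 libraries farthest from the median in miR-143-3p, a choice made without regard to miR-145-5p. For miR-143-3p and miR-199a-3p r was 0.39 (rho 0.24) and fell to 0.11 without the 2 libraries farthest out in miR-143-3p, so it rested on these. For miR-145-5p and miR-199a-3p r was −0.08 (rho 0.04). These are descriptions of libraries that share a depth and a base composition, so no p is given. Counting error limits them too. For miR-145-5p the coefficient of variation in colesevelam libraries was 25.1%, where counting error alone gave 26.3% in the median library. In vehicle libraries these were 28.3% and 21.1% for miR-145-5p, and 19.8% and 20.4% for miR-199a-3p. In lean libraries the spread exceeded counting error for both. The part of counting error in these r values was not tested. After group means were removed, the leading principal component of the libraries held 41.0% of the variance and tracked how steeply level depended on miRNA GC content (r = 0.97). The level of miR-143-3p had r = −0.67 with each library's slope of level on GC, against 0.27 for miR-145-5p and −0.22 for miR-199a-3p. miR-143-3p also had r = 0.74 with the log2 library total, group means subtracted, against −0.31 for miR-145-5p and 0.41 for miR-199a-3p. The part of depth and GC content in the differences above was not tested.

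**Figure D4:**
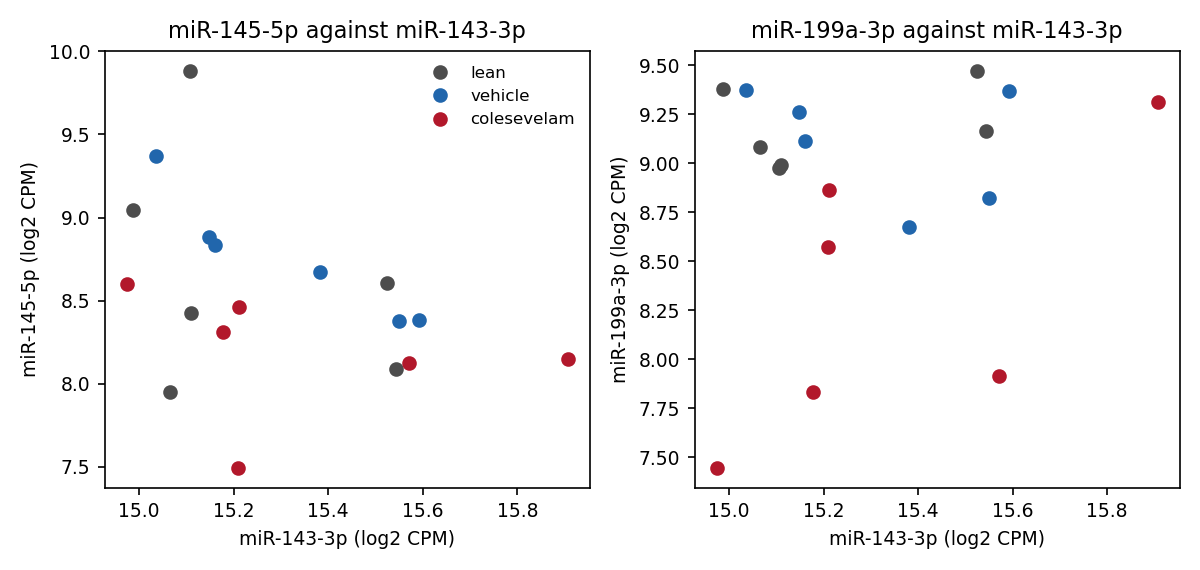
Log2 CPM of miR-145-5p (left) and miR-199a-3p (right) against that of miR-143-3p in the 18 libraries, coloured by group. On the left, libraries with more miR-143-3p tend to hold less miR-145-5p (r = −0.40 with group means subtracted), and on the right no common line joins the groups.

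The name stromal comes from what is known of these miRNAs elsewhere, and a bulk library cannot place them in a cell type. Among the 111 other tested miRNAs, those most like miR-143-3p over the 18 libraries were miR-192-5p (Pearson's r = 0.73) and miR-148a-3p (0.63), both abundant in hepatocytes, and miR-126a-5p (0.65), an endothelial miRNA. Its cluster mate ranked only 94 in this likeness. Most like miR-145-5p were miR-122-3p (0.61), the minor arm of the hepatocyte precursor, miR-181c-5p (0.58) and miR-339-5p (0.54). Most like miR-199a-3p were miR-181c-5p (0.66), miR-122-3p (0.58) and miR-30c-5p (0.57), all called lower in colesevelam than in lean libraries. With group means subtracted these 3 values fell to 0.36, 0.21 and 0.17, below the 0.39 of miR-143-3p with miR-199a-3p, so that likeness rested in part on the difference between groups. For miR-145-5p they became 0.49, 0.40 and 0.48, and for miR-143-3p they rose to 0.86 (miR-192-5p), 0.75 (miR-148a-3p) and 0.82 (miR-126a-5p). On the same scale miR-143-3p had r = 0.74 with the log2 library total and −0.67 with the GC slope. The part of depth and GC content in these likenesses was not tested.

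Of 18 other miRNAs linked to stellate cells, fibroblasts and fibrosis, 10 could be tested. Their calls, 1, 0 and 1 in the 3 comparisons, stand beside 6.25%, 10.7% and 21.4% of all tested miRNAs, and with so few members nothing is read from them. In vehicle against lean 1 rose and none fell, with a median log2 fold change of 0.12 against 0.01 over all tested miRNAs. The one that rose was miR-21-3p, the less abundant strand from the fibrosis-linked miR-21 hairpin, at 2.73 ± 0.32 (edgeR adjusted p = 2.12e-06). In colesevelam against vehicle none of the 10 was called, and the median was 0.00 against −0.01. In colesevelam against lean miR-21-3p alone rose, at 1.95 ± 0.32 (edgeR adjusted p = 0.000168), and the median was 0.20 against −0.08. The 4 most abundant members of the list gave, for colesevelam against vehicle, −0.19 for miR-21-5p, −0.02 for the collagen-repressing miR-29a-3p, −0.67 for miR-31a-5p (edgeR adjusted p = 0.0523) and 0.20 for miR-125b-5p.

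Of 8 miRNAs linked to insulin and glucose handling besides miR-143, all were tested. Beside the same shares of all tested miRNAs, none was called in vehicle against lean (median 0.13 against 0.01) or in colesevelam against vehicle (−0.03 against −0.01). In colesevelam against lean 1 fell, miR-375-3p of endocrine and epithelial cells, at −1.07 ± 0.37 (edgeR adjusted p = 0.0433), with a list median of 0.00. For the same comparison miR-26a-5p was at 0.22, miR-29a-3p at 0.25, miR-126a-3p at −0.18 and miR-103-3p at 0.53 (edgeR adjusted p = 0.0634).

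Summed markers of other cells differed in range between groups. The 5 leukocyte miRNAs, all with counts in each group, summed to 1585 to 3760 CPM for lean, 1036 to 1543 for vehicle and 766 to 1544 for colesevelam. The leukocyte members did not all move alike. In the same order the means were 1493, 611 and 648 CPM for miR-142-5p and 719, 725 and 305 for miR-150-5p. For miR-155-5p, with 20 counts over all libraries, they were 8.68, 1.96 and 17.5 CPM. The 6 epithelial miRNAs summed to 731 to 2177, 498 to 1172 and 607 to 1044 CPM in the same order. Most of that sum was miR-375-3p (means of 1214, 588 and 580 CPM), while the sparse miR-200c-3p went the other way (14.6, 17.8 and 28.0 CPM). The 2 endothelial rows summed to 5368 to 12310, 3475 to 7947 and 5058 to 12563 CPM, and the 3 erythroid ones analysed to 197 to 513, 106 to 340 and 56.8 to 451. The hepatocyte sum ranged from 288207 to 483274 CPM for lean, 215427 to 352746 for vehicle and 266327 to 497112 for colesevelam. The part of these differences in the values of miR-199a-3p and miR-145-5p was not tested.

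Scaling by TMM sets each miRNA against the rest of its library. The authors' deposited table uses another scaling, by factors that did not follow library depth. In it the log2 fold changes of vehicle against lean were −2.26 for miR-143-3p, −2.36 for miR-145-5p and −2.41 for miR-199a-3p. All 3 passed there at an adjusted p under 0.05, as did 98.3% of the miRNAs with an adjusted p in that comparison of the authors' deposited table, where the median was −2.41. Against lean, colesevelam libraries were at −2.60, −3.29 and −3.40 in the authors' deposited table, all passing as did 98.3% of miRNAs, around a median of −2.87. Against vehicle they were at −0.34, −0.93 and −0.98 in the authors' deposited table, none passing where 6.3% did, around a median of −0.36.

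The authors' size factors, recovered from the table, ran from 0.752 (lean 1) to 1.46 (colesevelam 3). Lean 2, with 881450 counts, had a factor of 0.885, and colesevelam 1, with 32936 counts, had 1.09. The part of depth in the deposited fold changes was not tested. With these factors put into edgeR, the place of each member relative to the median of all tested miRNAs changed little. Under these factors all 3 were called lower than in lean, as were 97.3% of the tested miRNAs for vehicle and 96.4% for colesevelam. For colesevelam against lean miR-199a-3p was at −0.64 from the median under TMM and at −0.63 under the authors' factors. miR-145-5p was at −0.57 and −0.52 from the median, and miR-143-3p at 0.21 and 0.16. For the 3 in vehicle against lean, and for miR-143-3p and miR-145-5p in colesevelam against lean, only these factors gave a call. miR-199a-3p in colesevelam against lean was also called in some other fits, such as limma-voom (adjusted p = 0.0249).

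**Figure D5:**
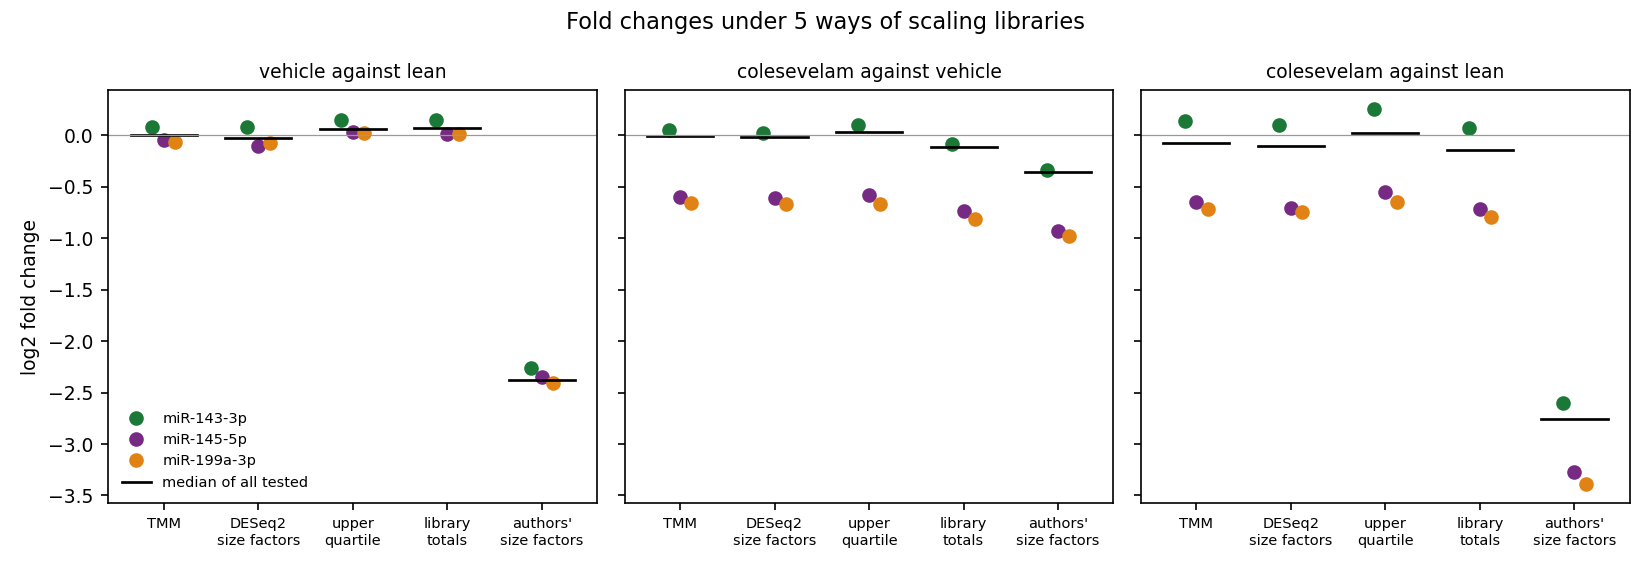
Log2 fold change (y axis) of miR-143-3p, miR-145-5p and miR-199a-3p in edgeR under 5 ways of scaling the libraries (x axis), with the median of all tested miRNAs as a black line, for the 3 comparisons. The authors' size factors move the median against lean to −2.38 for vehicle and −2.76 for colesevelam, and the 3 miRNAs move with it.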

How the data were processed

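Small RNA counts of 18 rat liver libraries were used, in 3 groups of 6 taken from the sample titles. The authors deposited unscaled values that are estimated counts of each mature miRNA, in one table of 401 rows; 297 of its 7218 values are not whole, none of them in the 3 rows described. The deposited table also gives mean scaled counts over the libraries of each comparison, log2 fold changes and p-values, raw and adjusted, per the file headers. Bowtie 1.1.2 and DESeq2 1.18.1 are named, with no role, per the submitters' processing notes; how reads were trimmed and counted, and on which build and annotation, is not given in the sources used here. A total RNA extract entered a library kit that the labels name without saying how small RNA was selected.

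Counts were rounded and filtered by filterByExpr (minimum count 10, minimum total 15), leaving 112 rows with 99.5% of counts. TMM factors ranged from 0.814 to 1.19. One robust quasi-likelihood fit in edgeR 4.0.16 (R 4.3.3) held all 18 libraries and gave F tests, with Benjamini-Hochberg adjustment over all rows at 0.05. SE is the fold change divided by the root of F. Log2 CPM used a prior count of 2. Alternatives used limma 3.58.1, DESeq2 1.42.0, other scalings, filters and sample sets. Dividing counts by 1 constant per library gave back 491 of 491 deposited scaled means, miR-184 aside, which recovered the authors' size factors. No column of sample values was left unmatched. The edgeR step was tested on simulated data for vehicle against lean with 112 miRNAs. There 15 of 15 changes of 2 log2 units and 10 of 15 of 1 log2 unit were called, with 2 false calls. Changes below 1 log2 unit were not simulated.

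A count of 0 allowed up to 3 counts, or 3.94 to 84.7 CPM by library, for counting error only. No molecular identifiers are named, so reads may repeat one molecule. The members and lists were chosen with earlier results of these data known. Named were the 3 members, the other arms and miR-214, up to 4 of each list by mean level, and the 3 rows most like each member. miR-21-3p and miR-375-3p, called but outside this rule, the 2 muscle miRNAs and the single leukocyte and epithelial markers were named after their values were seen. Replicate numbers were not taken to pair libraries. Deviations of same-numbered libraries of different groups correlated at a median of −0.12 over 18 pairs (−0.59 to 0.56). So wide a range cannot exclude a pairing.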

Additional observations from a re-analysis of the deposited data

Results flagged for a closer look

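1 value stood apart from its group. The vehicle 5 library held 2020 counts of miR-199a-3p per 1000 counts of miR-145-5p, far from the next vehicle library at 1375, with the gap taking more than the critical share of the group's range by Dixon's test. It was 1 of 18 sets of 6 values checked, where chance flags about 1 in 20. It is the deepest vehicle library, with 147314 counts.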

How the results depend on the processing

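Under all settings tried miR-199a-3p stayed lower in colesevelam than in lean libraries, at −0.55 to −0.996 when 1 library was left out. It passed the threshold in DESeq2 (−0.72), limma-voom (−0.84), with library totals only (−0.80) and without miR-192-5p (−0.85). It did not pass with libraries of one label number summed (−0.67, edgeR adjusted p = 0.171) or upper-quartile factors (−0.64, edgeR adjusted p = 0.118). Nor did it with a filter of at least 50 CPM in 6 libraries (−0.56, edgeR adjusted p = 0.175). With no filter, only the 2 groups compared or DESeq2 size factors in edgeR it also missed (edgeR adjusted p = 0.0997, 0.0924 and 0.0597). Against vehicle it stayed lower too, at −0.90 to −0.44 with 1 library left out, and was not called in any fit. miR-145-5p was lower in colesevelam libraries in every fit, at −0.84 to −0.30 against lean and −0.68 to −0.45 against vehicle with 1 library left out, and was called only against lean, with the authors' size factors.

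The authors' size factors gave, for vehicle and colesevelam against lean, −2.26 and −2.60 for miR-143-3p, −2.35 and −3.28 for miR-145-5p and −2.41 and −3.39 for miR-199a-3p. They gave −0.34 for miR-143-3p in colesevelam against vehicle. With them 110, 2 and 109 miRNAs were called in vehicle against lean, colesevelam against vehicle and colesevelam against lean. By construction these factors shift all miRNAs together.

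Values near 0 changed sign. For miR-143-3p, colesevelam against vehicle gave −0.082 with library totals only, −0.078 without miR-192-5p and −0.019 with only the 2 groups compared, and colesevelam against lean gave −0.0098 without miR-192-5p. With 1 library left out it ran from 0.00 to 0.15 (vehicle against lean), −0.042 to 0.18 (colesevelam against vehicle) and 0.01 to 0.27 (colesevelam against lean). In vehicle against lean, miR-145-5p was at 0.12 in limma-voom, 0.012 with library totals and 0.031 with upper-quartile factors, and at −0.25 to 0.30 with 1 library left out. miR-199a-3p was at 0.012 with library totals, 0.020 with upper-quartile factors and −0.14 to 0.066 with 1 library left out. The cause was not tested.

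With the replicate block, miR-145-5p was at 0.020 in vehicle against lean and miR-199a-3p at −0.83 in colesevelam against lean (edgeR adjusted p = 0.0580), and 7 miRNAs in place of 12 were called in colesevelam against vehicle. The block changed no call of the 3. That comparison also gave 6 calls with upper-quartile factors, and 7 with no filter or with libraries of one label number summed. Leaving out 1 library gave 5 to 8 calls in vehicle against lean, 7 to 12 in colesevelam against vehicle (7 without vehicle 6) and 17 to 32 in colesevelam against lean.

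Correlations within groups of 6 libraries differed from the pooled ones. Between miR-143-3p and miR-145-5p r was −0.94 within vehicle. Between miR-143-3p and miR-199a-3p it was −0.37 within vehicle and 0.64 within colesevelam, and between miR-145-5p and miR-199a-3p 0.42 and −0.33. Depth limits miR-145-5p and miR-199a-3p, with as few as 12 and 6 counts in a colesevelam library.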
